A study of Mus musculus with 13 samples.

Results

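The Olig2 ChIP-seq data described here are the coverage of 2 Olig2 ChIP libraries and 1 input library over a deposited list of 11747 Olig2 peaks. Every line of that list was taken, which gave 11747 of the 23280 peaks that the series lists for 4 transcription factors. All Olig2 peaks are 300 bp wide. For the other factors the series lists 5551 peaks (Nkx2.2), 4094 (Nkx6.1) and 1888 (Gli3).

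Olig2 is a basic helix-loop-helix transcription factor of the ventral neural tube. It binds DNA at E-boxes, is induced by Sonic hedgehog signalling, and marks the progenitors that give rise to motor neurons and later to oligodendrocytes. In these progenitors it acts largely as a repressor. Nkx6.1 and Nkx2.2 are homeodomain proteins of overlapping and neighbouring ventral domains, and Gli3 is a zinc-finger effector of Sonic hedgehog signalling. In ChIP-seq, chromatin fragments bound by a protein are recovered with an antibody and sequenced. An input is the same kind of chromatin sequenced without the antibody step, and shows how readily each stretch is recovered on its own.

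All Olig2 libraries came from neural progenitors made from mouse embryonic stem cells whose mixed strain background combines Swiss Webster, 129 Sv and C57BL6/J. The cells spent 2 days in suspension and 3 further days with 500 nM retinoic acid and 160 to 800 nM of the Smoothened agonist SAG, so no culture without the agonist is included. Chromatin was crosslinked with 1% formaldehyde for 30 min, and fragments of 275 to 700 bp were selected. Olig2 ChIP replicate 1 used the YFP3.1 line and replicate 2 a derivative of it carrying Rosa26-Gli1FLAG, a FLAG-tagged Gli1 at the Rosa26 locus. Both were precipitated with Millipore antibody AB9610. The input of the coverage table is shared by Nkx6.1 and Olig2 and came from the Rosa26-Gli1FLAG derivative. The labels also describe an Olig2 replicate 1 input from YFP3.1, which has no column in the table and was not analysed here. The line, the replicate and the library cannot be told apart.

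Coverage was given in bins of 25 bp out to 2000 bp on each side of each peak centre, in 3 blocks that correspond to 3 libraries. The blocks are called here the first ChIP library, the second ChIP library and the input, in their order in the table. No label ties either ChIP library to a replicate number. Total reads per library are unknown. Every value was a whole multiple of its library's smallest value above 0, within 0.02 of a step, and this step was 0.249 units in the first ChIP library, 0.468 in the second and 0.392 in the input. If 1 step is 1 fragment, the centre bin of the median peak held 88 fragments in the first ChIP library, 32 in the second and 2 in the input. The input had no fragment in the centre bin of 1719 peaks (14.6%), so a single input value carries a large counting error, while medians over many peaks do not. With 2 ChIP libraries against 1 input, an exact permutation test cannot go below p = 0.333, and peaks of 1 genome are not replicates. Values are therefore given per library, without p-values.

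The library in the last position was the flat one and is the shared input. Mean coverage within 250 bp of the centre was 18.3 units in the first ChIP library, 13.0 in the second and 0.792 in the input. In the flanks, the 250 bp that begin 1500 bp from the centre on each side, the means were 0.955, 0.798 and 0.533 units. The centre was thus 19.2 times the flank in the first ChIP library, 16.3 times in the second and 1.49 times in the input. Flanks were not cleared of neighbouring Olig2 peaks. At the 9640 peaks with no other Olig2 peak within 4000 bp the mean flanks were 0.651, 0.556 and 0.516 units. A direct check of the input's identity used the separate Nkx6.1 coverage table. For 80 pairs of Olig2 and Nkx6.1 peaks whose centres lay a whole number of bins apart, the last block held the same value in 11825 of 11825 overlapping bins. The corresponding share of equal bins was 10.9% for the first block and 7.77% for the second.

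The input was nearly but not fully flat. Its coverage exceeded 2 times its mean flank at 2643 peaks (22.5%), against 7.47% of windows of the same width in the flanks. The first ChIP library exceeded the same multiple of its own flank at all 11747 peaks and the second at 11418 (97.2%). At 5 times the flank the shares were 98.9% and 80.9% for the ChIP libraries and 0.400%, or 47 peaks, for the input. The mean input profile rose from 0.533 units 1500 bp from the centre to 0.872 units at the centre.

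**Figure D1:**
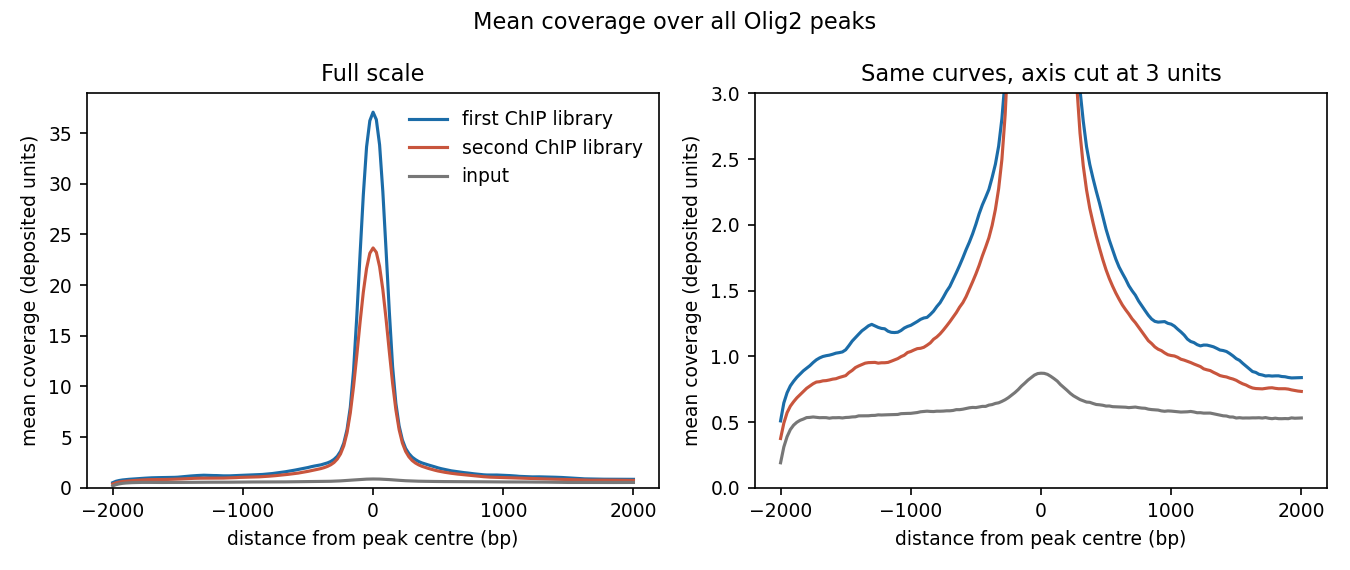
Mean coverage in deposited units over all 11747 Olig2 peaks against distance from the peak centre in bp, with 1 line per library; the right panel shows the same curves with the vertical axis ending at 3 units. The ChIP libraries peak at 37.1 and 23.7 units and the input at 0.872 units, and all curves drop at the left edge of the table.

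Olig2 ChIP coverage exceeded input at nearly every listed peak, and by more in the first library than in the second. The median fold over input, computed on coverage + 0.5 units within 250 bp, was 10.3 in the first ChIP library and 7.37 in the second. In the flanks it was 1.09 and 1.02. The size depends on the scale and the settings. With a pseudocount of 0.1 the medians were 15.9 and 11.0, and within 100 bp 16.97 and 11.0. With each library divided by its own mean flank they were 5.98 and 5.07. These flanks hold neighbouring Olig2 peaks in places, and the part of those in the lower medians was not tested. Peaks at least 4-fold over input numbered 11315 in the first ChIP library (96.3% of the list) and 9160 in the second (78%), and 9054 peaks (77.1%) met this in both. The 95% Wilson interval of the last share was 76.3% to 77.8%, which covers counting of peaks only. Background was measured in 23494 windows of 500 bp centred 1500 bp to either side of the peaks. There the same threshold was met by 2.67% in the first ChIP library, 2% in the second and 1.6% in both. These windows were not cleared of other listed Olig2 peaks, and 13.0% of peaks had another within 2000 bp. The list was presumably made from ChIP coverage, so enrichment over it is a description of the list and not independent support for it. Its order followed the first ChIP library more closely (Spearman's correlation with line number -0.928, against -0.634 for the second). The contrast between the ChIP libraries is therefore conditional on this list, and the part of the choice of peaks in it was not tested.

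Peaks that met the threshold in 1 ChIP library only were unevenly divided. The first library alone passed at 2261 peaks (19.2%), the second alone at 0.902% of the list, and neither at 2.78%. All listed peaks exceeded 2 times the mean flank in the first ChIP library, so places covered mainly in the second may be missing from the list. At the 2261 peaks the median coverage was 7.97 units in the first ChIP library, 3.01 in the second and 0.766 in the input. ChIP coverage plus the pseudocount was below that of the input at 3 peaks in the first library and at 46 in the second. The highest fold over input was 571.5 in the first library and 248.3 in the second, at the same peak on chromosome 16. For comparison, both ChIP libraries were at least 4-fold over input at 60.7% of Nkx6.1 peaks and 37.3% of Nkx2.2 peaks in their own tables, which may be scaled differently.

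The 10 strongest peaks, ranked by the lower of both ChIP values, show how far the signal reached. The highest lay at chr13:64122241-64122540 in build mm9, the build of all coordinates here, with 616.6 units in the first ChIP library, 333.2 in the second and 1.98 in the input. It was followed by chr19:45533287-45533586 with 570.3 and 290.1 units over an input of 0.840, and by chr16:29642464-29642763 with 562.8 and 244.3 units over an input of 0.486. Both of these were also overlapped by peaks of Nkx6.1, Nkx2.2 and Gli3. At all 3, each ChIP library was more than 100 times above the input.

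The next in rank was chr18:54879007-54879306, with 407.5 and 235.1 units in the ChIP libraries and an Nkx6.1 peak at the same place. The peaks at chr1:128758524-128758823 (321.9 and 220.5 units), chr16:30129756-30130055 (224.99 and 193.7 units), chr2:101013020-101013319 (319.6 and 165.5 units) and chr13:103792063-103792362 (227.5 and 160.6 units) each overlapped peaks of both Nkx6.1 and Nkx2.2. The peak at chr3:34987593-34987892 had 220.8 and 168.002 units and overlapped Nkx6.1 only. The remaining one, chr6:127972305-127972604, had 210.5 and 169.4 units and overlapped a Gli3 peak but no peak of the other ventral factors. In all, 9 of the 10 strongest Olig2 peaks overlapped an Nkx6.1 peak, against 13.5% of the whole list, and 7 overlapped an Nkx2.2 peak, against 11.2%. Input at these 10 peaks ranged from 0.486 to 2.69 units.

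Peaks in the middle of the distribution were far weaker. The 3 peaks nearest the median of the mean ChIP coverage included chr12:118292665-118292964, with 10.2 and 10.0 units over an input of 1.23. The others were chr19:55951873-55952172, with 10.9 and 9.26 units over an input of 1.90, and chr8:130517674-130517973, with 15.0 and 5.14 units over an input of 0.579. All 3 were at least 4-fold over input in both ChIP libraries. Over the list, coverage ran from 3.46 to 616.6 units in the first ChIP library, from 0.178 to 333.2 in the second and from 0 to 52.997 in the input. The top 10% of peaks held 37.6% of all centre coverage in the first ChIP library, 36.99% in the second and 23.5% in the input.

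Olig2 peaks were narrow and symmetric on average. The mean profile of both ChIP libraries had its highest bin at the peak centre. Its width at 50% of its height above the flank was 234.5 bp in the first ChIP library and 266.3 bp in the second. The broader, low rise of the input was 475.4 bp wide. Mean ChIP coverage at 100 bp from the centre had dropped to 61.6% of its height above the flank in the first library and 68.6% in the second. At 200 bp it was at 13.8% and 20.9%. Coverage stayed above 2 times the flank out to at least 500 bp on each side in both ChIP libraries. Bins to the left of the centre, within 500 bp, held 49.5% of the coverage in the first library, 49.3% in the second and 49.6% in the input. The centres come from a list presumably made from ChIP coverage, so a central profile describes the list and is no independent support.

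Widths of single peaks were close to that of the mean profile. The median width of single peaks was 224.6 bp in the first ChIP library, with the middle 50% of peaks between 213.9 and 245.3 bp. In the second ChIP library it was 245.6 bp, with the middle 50% between 231.6 and 271.6 bp. The second library gave the wider peak at 78.8% of the 11739 peaks with a width in both. The highest bin lay within 50 bp of the listed centre at 94.4% of peaks in the first ChIP library and 82.7% in the second, against 27.9% in the input. This contrast is conditional on the list, whose order followed the first ChIP library more closely. A wider second profile was also measured in the other tables, at 221.2 and 275.3 bp for Nkx6.1 and 200.9 and 303.3 bp for Nkx2.2.

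Both ChIP libraries ranked the peaks alike, with wide scatter. Spearman's correlation of their centre coverage over 11747 peaks was 0.730, against 0.123 between the first ChIP library and the input and 0.214 between the second and the input. These correlations are across peaks, which share the libraries, and are descriptions. All correlations with the input are limited by its low counts, a median of 2 steps in the centre bin against 88 and 32. The part of these counts was not tested. After division by the input, which both share, the correlation was 0.742. Across peaks, the correlation was 0.538 for the width of single peaks and 0.655 for the share of coverage to the left of the centre. Bin by bin within 1000 bp of each centre, the profiles of both ChIP libraries at the same peak had a median correlation of 0.952, against 0.154 between the first ChIP library and the input. Both ChIP profiles have their height near the same listed centre, so this last value is not on the scale of the correlations across peaks. The highest bins of the ChIP libraries were within 50 bp of each other at 84.7% of peaks. Spearman's correlation between the ChIP libraries was 0.644 for Nkx6.1 peaks and 0.656 for Nkx2.2 peaks in their own tables.

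The ChIP libraries had more of their highest peaks in common than of their lowest. The highest 10% of peaks in each ChIP library had 798 (67.9%) in common, and the highest 100 had 59 in common. The lowest 10% had 34.04% in common. Coverage was higher in the first ChIP library at 9082 peaks (77.3%). The log2 ratio of the first to the second had a median of 0.53 and an SD over peaks of 0.77, and 90% of peaks lay between -0.61 and 1.92. Whether this SD was smaller among strong peaks depended on the ranking. Ranked by the first ChIP library, it was 0.68 in the highest 10% and 0.83 in the lowest. Ranked by the second, it was 0.64 and 0.54.

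The scatter of the ratio was also set beside the spread that counting alone would give if 1 step is 1 independent fragment. At the centre bin the SD of the log2 ratio was 0.91 over all peaks, where counting alone gives 0.35. In the first 10% of the list, where the median peak had 140 fragments in the second ChIP library, the SD was 0.72 and counting gives 0.15. In the last 10%, with 18 fragments, the SD was 1.01 and counting gives 0.46. Separate libraries vary by more than counting, so these values give the size of the scatter and test nothing.

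**Figure D2:**
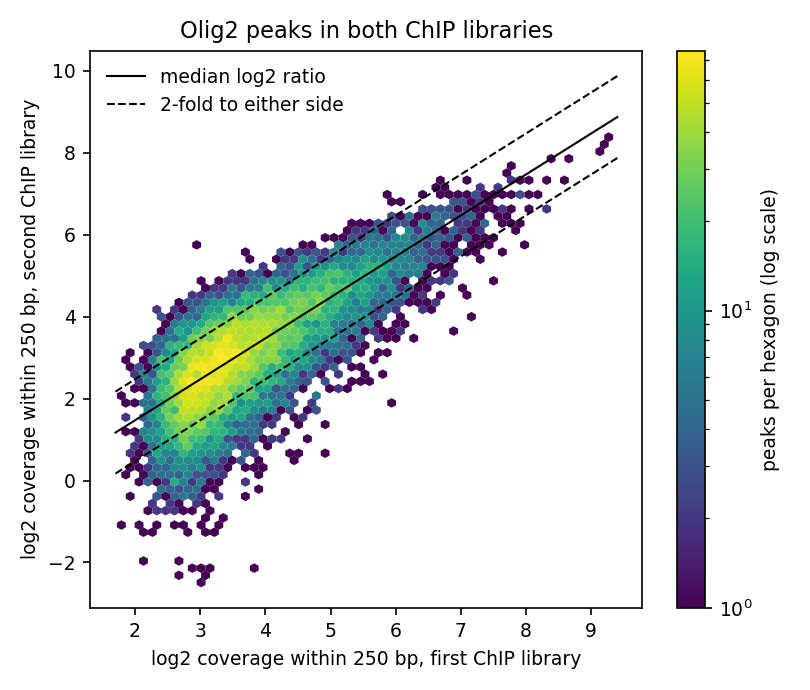
Log2 coverage within 250 bp of each of the 11747 Olig2 peaks in the second against the first ChIP library, with hexagons coloured by the number of peaks. The solid line is the median log2 ratio of 0.53 and the dashed lines lie 2-fold to either side of it; 81.1% of peaks fall between them.

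Peaks that departed from the median ratio differed in how often other factors' peaks overlapped them. Within 2-fold of the median ratio lay 9529 peaks (81.1%), while 1324 lay further towards the first ChIP library, 894 further towards the second, and 1.18% of the list lay beyond 4-fold. The 1324 peaks had median coverages of 11.1 units in the first ChIP library and 2.52 in the second, with 0.560 in the input. Of these, 78 (5.89%, 95% Wilson interval 4.75% to 7.29%) overlapped an Nkx6.1 or Nkx2.2 peak and 1 (0.0755%) a Gli3 peak. The 894 peaks had medians of 9.90 and 17.5 units with 0.803 in the input, and 35.7% of them (32.6% to 38.9%) overlapped an Nkx6.1 or Nkx2.2 peak and 100 (11.2%) a Gli3 peak. Among the 9529 peaks near the median ratio the shares were 20.6% and 2.96%. The intervals cover counting of peaks only, and the differences between these groups were not tested. Input coverage at the centre over its flank was 1.26 in the peaks towards the first library, 1.496 near the median ratio and 1.66 in those towards the second. The part of input coverage in these differences was not tested.

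The most extreme ratios included peaks with signal over input in both ChIP libraries. Towards the first ChIP library, among peaks of at least median mean coverage, the largest was at chr1:152625058-152625357, with 63.1 units in the first ChIP library, 3.76 in the second and 0.373 in the input. It was followed by chr1:77229591-77229890 (29.9 and 1.60 units), chr13:8405504-8405803 (21.1 and 1.43 units), chr2:5350879-5351178 (23.3 and 1.67 units) and chr12:88259179-88259478 (24.7 and 1.89 units). None of these 5 overlapped a peak of another factor. At the first of them the second ChIP library was still 4.88-fold over input, and at the others 1.39-fold to 2.80-fold. The folds at those others rest on few fragments, if 1 step is 1 fragment. In the order given, their centre bins held 7, 5, 3 and 3 in the second ChIP library and 1, 0, 5 and 2 in the input.

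Towards the second ChIP library, the largest ratio was at chr8:15519784-15520083, with 7.78 units in the first ChIP library and 53.2 in the second. The input was also high there, at 8.33 units, so that the first library was 0.938 times the input. The next were chr4:100195222-100195521 (7.73 and 28.5 units, at an Nkx6.1 peak) and chr8:82579811-82580110 (13.0 and 46.6 units, at a Gli3 peak). They were followed by chr12:105715811-105716110 (5.17 and 18.9 units) and chr11:87236545-87236844 (6.22 and 20.7 units, at a Gli3 peak). The peak on chromosome 8 with 46.6 units lay 1647 bp from another Olig2 peak, and its flank, at 27.4 and 45.6 units, held that neighbour. Input at these 4 peaks was between 0.299 and 1.81 units. The first ChIP library was still 6.91-fold, 12.5-fold, 7.10-fold and 2.91-fold over input at them, in the order given.

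The order of the list followed the first ChIP library more closely than the second. Spearman's correlation between line number and coverage was -0.928 for the first ChIP library, -0.634 for the second and -0.0509 for the input. In the first 10% of lines the median coverage was 52.3 units in the first ChIP library and 33.8 in the second, and in the last 10% it was 6.31 and 5.07 units. The input was 0.822 and 0.710 units in the same groups. At least 4-fold over input in the second ChIP library were 1170 peaks in the first 10% of lines (99.6%, 95% Wilson interval 99.01% to 99.8%) and 646 in the last (55.03%, 52.2% to 57.9%). In the first ChIP library these shares were 100% and 81.9%. The intervals cover counting of peaks only. The peak list was deposited with the sample record of Olig2 ChIP replicate 1. Beyond that, nothing deposited says how the list was called or sorted, or on which libraries.

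**Figure D3:**
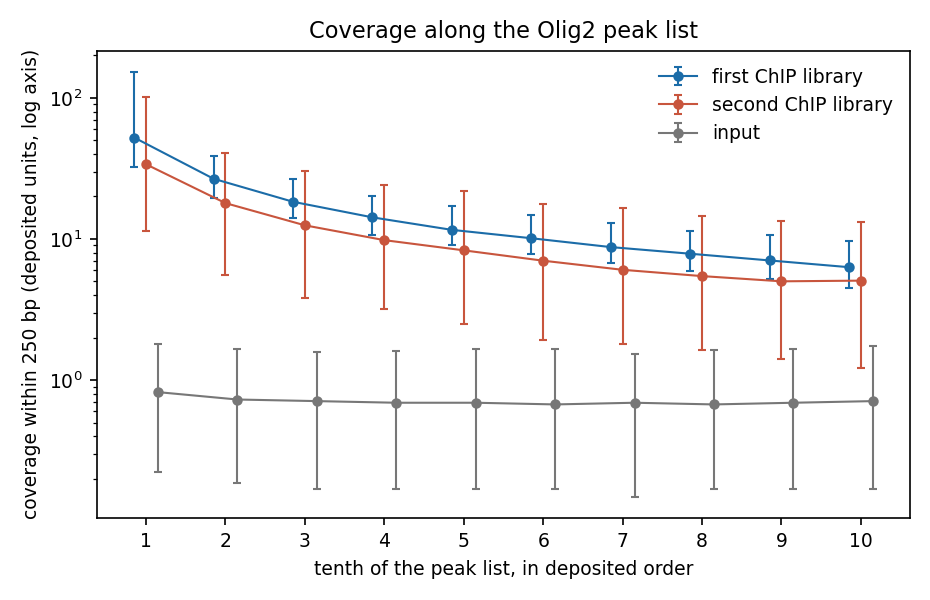
Median coverage within 250 bp in deposited units on a log axis, for each library in 10 successive groups of the Olig2 peak list in its deposited order; bars run from the 5th to the 95th percentile of peaks. The first ChIP library goes from 52.3 to 6.31 units with short bars, the second from 33.8 to 5.07 with longer ones, and the input stays between 0.672 and 0.822.

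Olig2 peaks that overlapped a peak of another ventral factor by at least 1 bp had higher ChIP coverage than those that did not. Of the list, 2357 peaks (20.1%) overlapped Nkx6.1 or Nkx2.2, of which 1042 overlapped Nkx6.1 only, 774 Nkx2.2 only and 541 both, and 9390 overlapped neither. Overlap here is of peak lists from separate ChIP experiments, and does not show both factors on the same DNA molecule or in the same cell. Median coverage at the 9390 peaks was 10.5 units in the first ChIP library and 7.35 in the second. It was 15.96 and 14.7 units with Nkx6.1 only, 14.02 and 13.5 units with Nkx2.2 only, and 20.4 and 21.2 units with both. The ranges of single peaks overlapped widely, from 5.59 to 43.6 units without another ventral factor and from 7.06 to 134.3 units with both, as 5th and 95th percentiles in the first ChIP library.

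On the log2(coverage + 0.5) scale the 2357 overlapped peaks exceeded the 9390 others by 0.83 in the mean of both ChIP libraries. The difference was 0.61 in the first ChIP library, 1.05 in the second and 0.18 in the input. The pseudocount is close to the median input of 0.710 units and shrinks the input difference more than those of the ChIP libraries. The SD over peaks was 1.11 among overlapped peaks and 0.93 among the others. At least 4-fold over input in the second ChIP library were 91.8% of overlapped peaks and 74.5% of the others, beside 78% of the whole list, while in the first ChIP library the shares were 97.2% and 96.1%. Widths were larger at overlapped peaks, with medians of 234.2 and 260.1 bp in the ChIP libraries against 222.6 and 242.9 bp at the others.

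The ratio of the ChIP libraries differed between these overlap classes. The median log2 ratio of the first to the second was 0.62 without another ventral factor, 0.25 with Nkx6.1 only, 0.20 with Nkx2.2 only and 0.08 with both. It was -0.07 at the 3.26% of Olig2 peaks that overlapped a Gli3 peak and -0.29 at the 66 that overlapped peaks of all 3 other factors. Agreement between the ChIP libraries was also closer, with Spearman correlations of 0.685 without another ventral factor, 0.872 with both and 0.918 with all 3 others, over 9390, 541 and 66 peaks. The 66 peaks had median coverages of 26.8 and 34.3 units. Gli3 was profiled as a FLAG-tagged protein in another stem cell line cultured without the agonist, so overlap with it is overlap of places in the genome and not of binding in 1 culture.

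**Figure D4:**
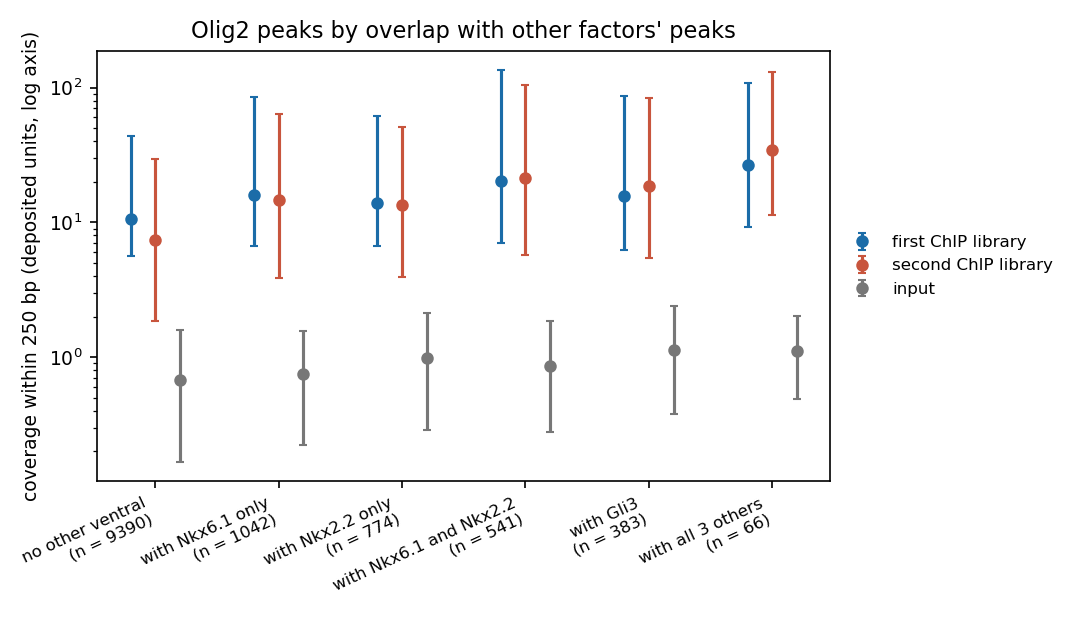
Median coverage within 250 bp in deposited units on a log axis, per library, for Olig2 peaks grouped by overlap with peaks of the other factors; bars run from the 5th to the 95th percentile of peaks. The first ChIP library is the higher one without another ventral factor (10.5 against 7.35 units) and the second at peaks with all 3 others (34.3 against 26.8).

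Overlap with other factors depended on which library ranked the peaks. Ranked by the second ChIP library, 593 of the highest 10% of Olig2 peaks (50.5%, 95% Wilson interval 47.7% to 53.4%) overlapped an Nkx6.1 or Nkx2.2 peak, and 42 of the lowest 10% (3.57%, 2.66% to 4.80%) did so. Ranked by the first ChIP library, the shares were 40.5% (37.7% to 43.3%) and 7.49% (6.12% to 9.14%). Ranked by the input, they were 30.7% and 11.7%. For Gli3 the second ChIP library ran from 9.88% in the highest group to 0.170% in the lowest, the first from 6.64% to 1.87%, and the input from 9.97% to 0.511%. The intervals cover counting of peaks only. The highest groups of the rankings share peaks, and the differences between rankings were not tested.

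**Figure D5:**
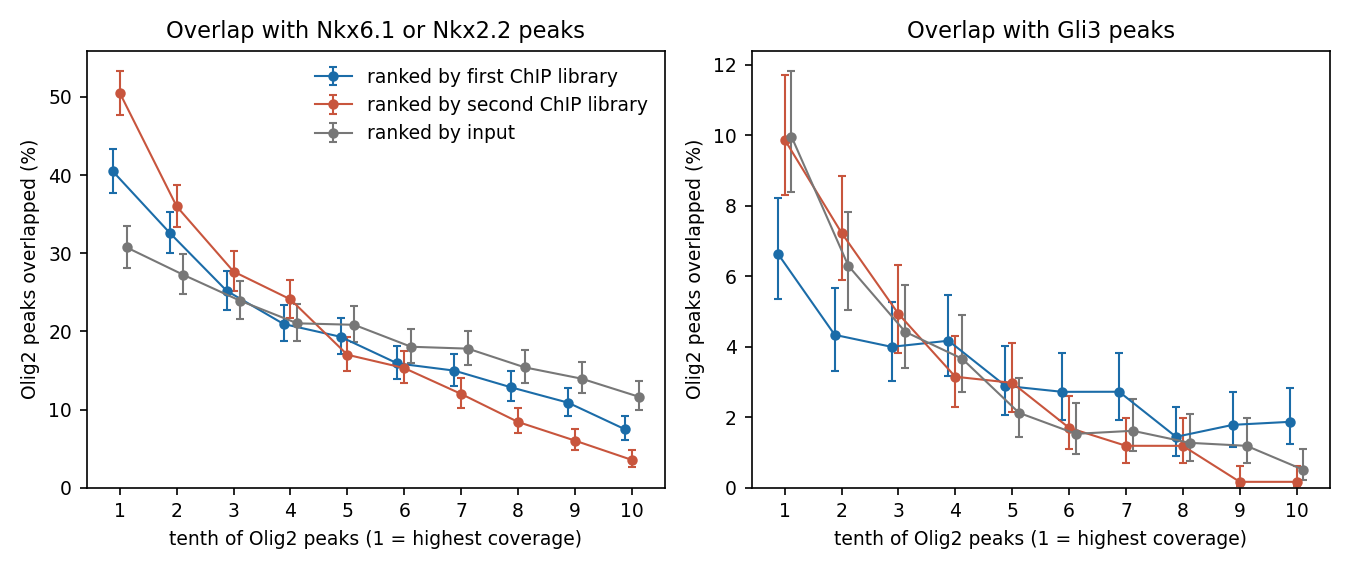
Percent of Olig2 peaks that overlap an Nkx6.1 or Nkx2.2 peak (left) or a Gli3 peak (right) in 10 groups of Olig2 peaks, ranked from highest to lowest coverage in each library; bars are 95% Wilson intervals, which cover counting of peaks only. The second ChIP library falls from 50.5% to 3.57% on the left, and on the right it and the input start at 9.88% and 9.97%.

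Input was also higher at peaks that overlapped another ventral factor. The peaks were split into 3 equal groups by input and, separately, by each ChIP library. Among peaks of the highest input group, 42.1% of those also highest in the second ChIP library overlapped an Nkx6.1 or Nkx2.2 peak, against 9.43% of those lowest in it. The shares were 36.4% and 5.44% in the middle input group and 28.8% and 5.42% in the lowest. The part of input coverage in the overlap was not tested. Among peaks highest in the second ChIP library, Gli3 overlap was 11.5% in the highest input group and 2.68% in the lowest. In a split by both ChIP libraries, peaks highest in the second overlapped Nkx6.1 or Nkx2.2 at 38.4%, 33.03% and 29.8% in the highest, middle and lowest groups of the first. Peaks highest in the first overlapped at 38.4%, 15.2% and 4.43% in the highest, middle and lowest groups of the second, the last from 9 peaks.

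Height at sites shared with Nkx6.1 was compared over 1555 sites, whose Olig2 and Nkx6.1 centres were a median of 44 bp apart. Spearman's correlation between Olig2 and Nkx6.1 coverage was 0.174 for the first ChIP library of each table and 0.461 for the second. Crossed, it was 0.246 for the first Olig2 with the second Nkx6.1 library and 0.214 for the second Olig2 with the first Nkx6.1 library. The Olig2 libraries had a Spearman correlation of 0.826 with each other at these sites and the Nkx6.1 libraries 0.681. All 4 were read in tables with the same input, whose own correlation between the tables was 0.957.

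A few Olig2 peaks lay where the input itself was high. The most input was at chr15:74915895-74916194, with 52.997 units in the input against 15.2 and 27.2 in the ChIP libraries. Next were 3 neighbouring peaks on chromosome 11, at chr11:3086522-3086821, chr11:3069369-3069668 and chr11:3075982-3076281. Input was 11.3, 11.3 and 9.60 units at their centres and 12.3 to 14.2 units in their flanks, and the first ChIP library was 0.995-fold, 1.14-fold and 1.10-fold over input. At the peak on chromosome 15 both ChIP libraries were below the input, at 0.293-fold and 0.518-fold. None of the 5 peaks with most input overlapped a peak of another factor. Leaving out the 47 peaks with input above 5 times its flank gave 77.3% of peaks at least 4-fold over input in both ChIP libraries.

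Peaks on chromosome X had less input than those on the autosomes, and ChIP coverage closer to theirs. Chromosome X held 1.72% of the list, and no peak lay on chromosome Y. Median input at the X peaks was 0.345 units against 0.710 on the autosomes, a ratio of 0.487. The corresponding ratios were 0.916 in the first ChIP library (10.4 and 11.3 units) and 0.876 in the second (7.39 and 8.44 units). As peaks were presumably listed for their ChIP coverage, the ChIP ratios at the centres are conditional on that choice, whose part was not tested. In the flanks the X to autosome ratio was 0.657 in the first ChIP library, 0.580 in the second and 0.414 in the input. As input is the divisor, the median fold over input was higher on X, at 14.4 and 9.13 against 10.3 and 7.33 on the autosomes. Without X, 76.9% of peaks were at least 4-fold over input in both ChIP libraries.

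Olig2 peaks were mostly spread out, with some crowded stretches. The median distance to the nearest Olig2 peak was 37701 bp, 1062 peaks (9.04%) had another within 1000 bp, and 1.12% of peaks overlapped another peak of the list. Peaks with a neighbour within 1000 bp had median coverages of 12.9 and 11.2 units against 11.1 and 8.15 for the rest, and 28.7% overlapped an Nkx6.1 or Nkx2.2 peak against 19.2%. Coverage within 250 bp of close neighbours is partly the same signal. The 100 kb window with most peaks was chr6:52100001-52200000, with 10. Their coverage ran from 6.09 to 27.6 units in the first ChIP library and from 2.94 to 40.04 in the second, all 10 were at least 4-fold over input in both, and 6 overlapped Nkx6.1 or Nkx2.2. Among 3 windows with 9 peaks each were chr2:146100001-146200000, where all 9 passed in both, and chr5:99900001-100000000, where 5 did. None of these 3 windows held any of the 10 strongest peaks.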

How the data were processed

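Olig2 ChIP-seq coverage was measured in ES-derived ventral progenitors. Bowtie2 2.2.4 and HOMER are named in the submitters' processing notes, with build mm9 but no word on which step made which file. The authors deposited a 3-column peak list without scores, and a coverage table whose other values (per-library scaled coverage, scale not given) stand in 25 bp bins; per the file headers the offsets run to 2000 bp. Libraries were taken in the order of the codes naming the table, and table rows in list order: shifted profiles of 563 pairs of neighbouring peaks had median correlations of 0.976 to 0.998. Sequencing depth is unknown; columns of other samples left out numbered 0.

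Centre coverage is the mean of the bins up to 250 bp away. Flanks avoid the last bins on the left, where coverage drops. Folds are (ChIP + 0.5) over (input + 0.5) units. Python 3.11.15 with numpy 2.4.6, pandas 2.3.3 and scipy 1.17.1 was used, and the scripts were tested on simulated data. Overlap needed 1 bp. Named regions are the 10 highest by the lower ChIP value, the 5 with most input, the 5 largest ratios each way, the 3 nearest the median and the 3 most crowded windows. Groups by rank, by ratio, by input and by chromosome X were added after values were seen. Peaks and lists were chosen with earlier results of these data known. No mm9 genome or annotation was used here, so no gene, sequence or E-box is given.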

Additional observations from a re-analysis of the deposited data

How the results depend on the processing

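Of the 14 results, only the difference between overlapped and other peaks was checked for a change of sign. It kept its sign under every alternative that could be run. The other results are folds, shares, widths, ratios to the flank and a correlation, for which only the size of the change was judged. Of 61 alternative values, 39 moved by more than the tolerance, and 22 did not. The tolerance was 1 SD between the ChIP libraries, the 95% Wilson interval for shares, the 95% interval of the mean over peaks for the input, and 0.05 for the correlation. For shares over 11747 peaks this interval is narrow, so another threshold or pseudocount counts as moved almost by construction. The count of 39 holds under these tolerances only. The median fold over input in the first and second ChIP library was 15.9 and 11.0 with a pseudocount of 0.1, 16.97 and 11.0 within 100 bp, and 5.98 and 5.07 with each library divided by its mean flank and the pseudocount by that of the input; with a pseudocount of 1 it was 7.35 in the first. The percent of peaks at least 4-fold over input in the first, second and both ChIP libraries was 98.2, 87.4 and 86.9 with a pseudocount of 0.1, 90.7, 66.2 and 64.4 with 1, 99.2, 88.3 and 88.1 within 100 bp, and 75.8, 61.8 and 56.6 with libraries scaled to their flank. At a threshold of 2-fold it was 99.9, 95.7 and 95.7, and at 8-fold 66.3, 46.2 and 42.3. Centre over flank in the first ChIP library, the second and the input was 22.2, 18.6 and 1.62 with the outermost 250 bp as flank, which includes the drop at the left edge, 15.5, 13.4 and 1.39 with the 250 bp beyond 1000 bp, and 11.9, 10.6 and 1.33 as a median over peaks; without the 1% of peaks with most input the input gave 1.45. Highest bins within 50 bp were at 83.7% of peaks when 500 bp were searched and 89.9% of peaks above the median. The highest 10% of peaks overlapped Nkx6.1 or Nkx2.2 at 40.5% ranked by the first ChIP library and 37.7% by list line, against 50.5% by the second, a choice made after seeing the data. The difference of 0.83 between overlapped and other peaks was 0.61 to 1.05 with 1 ChIP library left out. Both of these values lie within 1 SD of their own mean by construction, so their place among the 22 shows nothing. The cause of these changes was not tested. The flanks used for scaling and for centre over flank were not cleared of neighbouring Olig2 peaks. No paired analysis was possible because the table's columns carry no replicate number and its input is 1 library. The planned count of E-boxes was not run without an mm9 genome. Input depth, a median of 2 steps in the centre bin, limits every fold of a single peak.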
